A study of Mus musculus with 6 samples.

Results

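The genes followed here are 10 members of the heat shock response: Hspa1a, Hspa1b, Hspa8, Hsph1, Dnajb1, Bag3, Hsp90aa1, Hspb1, Hspd1 and Hspe1. They were taken by name from a list of cytosolic and mitochondrial chaperones, and no rule used their values. Earlier results of these data were, however, known when they were chosen. Estimated counts were summed over all transcripts of each gene. All 10 were among the 15933 genes tested, of 35856 genes with a matched transcript. The study profiled total RNA, depleted of ribosomal RNA, from mouse cells of genotype Mdm2fl/flp53-/-: a T cell lymphoma and a sarcoma in short-term culture, and fibroblasts grown out of ear punches of adult mice. Mdm2 encodes the ubiquitin ligase that holds p53 in check, and these cells lack p53 in both arms. Per the labels, cells received retrovirus encoding GFP with the tamoxifen-activated recombinase CreERT2, or GFP by itself, followed by 1 mM 4-hydroxytamoxifen (4-OHT) or ethanol, during 6 h for lymphoma and 48 h for the other cell types. Which vector a given library's cells carried is not stated, and neither is the number of mice, tumours or clones behind each culture. Each combination of cell type and arm is 1 library, so a labelled cell type contributes 1 pair, and 4-OHT and deletion cannot be told apart.

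Chaperones bind unfolded segments of other proteins and keep them from aggregating. HSP70 proteins do so in cycles of ATP use that J-domain proteins start and nucleotide exchange factors end, HSP90 acts on late folding steps of kinases and receptors, small heat shock proteins hold unfolded clients without ATP, and HSP60 with its lid HSP10 encloses clients inside mitochondria. Under proteotoxic stress, the transcription factor HSF1 trimerises, binds heat shock elements made of alternating GAA and TTC units, and raises the inducible members of these families, while Hspa8 and most mitochondrial chaperones are also made constantly.

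The labels need care. Mdm2 stood at 30.5 to 31.1 CPM (counts scaled by effective library size) in the libraries labelled deleted and at 28.0 to 28.5 CPM in those labelled vehicle (shared log2 fold change 0.13 ± 0.05 SE, edgeR adjusted p = 0.0539), and deposited values do not show which exons were read. Of 10 T cell markers, Lck was the only one to reach 1 CPM in any library, and Cd3d, Cd3e and Cd247 had no count anywhere. The 9 mesenchymal markers summed to 10234.5 to 10484 CPM in libraries labelled deleted and 17415 to 18188 CPM in those labelled vehicle, whatever the labelled cell type. Markers of T cells summed to 3.72 to 4.30 CPM against 1.89 to 2.23 CPM, and of endothelium to 0.848 to 1.23 against 0.176 to 0.270 CPM. Leukocyte, skeletal muscle and epithelial markers each summed to at most 1.30 CPM. The part of these differences in the results below was not tested, and in bulk RNA fewer cells of a type cannot be told apart from less RNA per cell. Libraries are therefore called by their labels only. Total estimated counts were 26243064 to 37517726 per library.

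Because these genes are known as HSF1 targets, the sequence before their transcript starts was read first. RefSeq windows of 300 bases, 250 before and 50 after an annotated start (GRCm38.p6), were on hand for 8 of the 10 genes, with 11 windows in all, and Hspa8 and Hsp90aa1 were not matched. The 250 bases before the start are shown for an inducible HSP70 gene, the small heat shock protein gene, the HSP10 gene and the J-domain gene, since these carry different motif arrangements. Capitals mark every match to GAANNTTC or TTCNNGAA, the 2-unit heat shock motifs (each reads the same on both strands), including overlapping matches.
Hspa1a: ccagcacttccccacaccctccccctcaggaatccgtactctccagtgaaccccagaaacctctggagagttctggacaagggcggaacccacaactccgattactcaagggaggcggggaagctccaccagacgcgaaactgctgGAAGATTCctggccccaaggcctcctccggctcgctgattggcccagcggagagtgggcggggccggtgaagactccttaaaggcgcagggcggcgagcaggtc
Hspb1: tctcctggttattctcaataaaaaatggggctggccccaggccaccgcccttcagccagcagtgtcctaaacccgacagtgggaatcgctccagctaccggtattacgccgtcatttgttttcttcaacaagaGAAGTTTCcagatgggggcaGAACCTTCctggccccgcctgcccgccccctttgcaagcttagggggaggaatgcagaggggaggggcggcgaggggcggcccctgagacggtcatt
Hspe1: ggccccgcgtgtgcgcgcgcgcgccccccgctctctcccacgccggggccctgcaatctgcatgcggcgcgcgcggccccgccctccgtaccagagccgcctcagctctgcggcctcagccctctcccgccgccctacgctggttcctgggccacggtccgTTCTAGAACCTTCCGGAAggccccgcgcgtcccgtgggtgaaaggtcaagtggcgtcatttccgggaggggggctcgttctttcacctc
Dnajb1: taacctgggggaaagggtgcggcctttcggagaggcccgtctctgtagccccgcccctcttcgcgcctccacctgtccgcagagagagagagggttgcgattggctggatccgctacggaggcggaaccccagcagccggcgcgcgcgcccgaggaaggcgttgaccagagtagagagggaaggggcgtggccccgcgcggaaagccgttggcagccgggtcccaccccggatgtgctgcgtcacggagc
These stretches lie at chr17:34972157-34972406 on the minus strand (Hspa1a), chr5:135887669-135887918 on the plus strand (Hspb1), chr1:55087898-55088147 on the plus strand (Hspe1) and chr8:83607925-83608174 on the plus strand (Dnajb1).

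A 2-unit motif was found in a window of 7 of these 8 genes and in 8 of their 11 windows. Of all 32851 mouse windows of that length, 15.1% hold such a motif. A gene may have several windows, and those of Hspa1a and Hspa1b, of Hspd1 and Hspe1, and of the Hsph1 starts share sequence. Counts here and for the 3-unit motif below are therefore not of separate sequences. Hspa1a and Hspa1b have GAAGATTC from base -104 to base -97. Hspb1 has GAAGTTTC at -117 to -110 and GAACCTTC at -97 to -90. A 3-unit motif, in which a 2-unit motif runs on through NN into a further alternating unit (GAA, TTC, GAA or TTC, GAA, TTC, each the other on the opposite strand), was found for 3 genes, against 0.603% of all windows. In Hspe1 the units run on from -89 to -72 as overlapping 3-unit matches, and the same stretch lies in the window of a second, downstream start of Hspd1, since the HSP60 and HSP10 genes stand head to head. Hsph1 has TTCTGGAAAGTTC 37 to 49 bases past its first annotated start. Bag3 has 1 match, GAAGTTTC, 43 to 50 bases past its start, and neither Dnajb1 window has any. The windows of Hspa1a and Hspa1b differ at 4 of 300 bases, counted from 1 at the first base of the window: C44T, T47C, T249G and C276T, with the Hspa1a base first. A match is a description of letters and says nothing of binding in these cells.

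**Figure D1:**
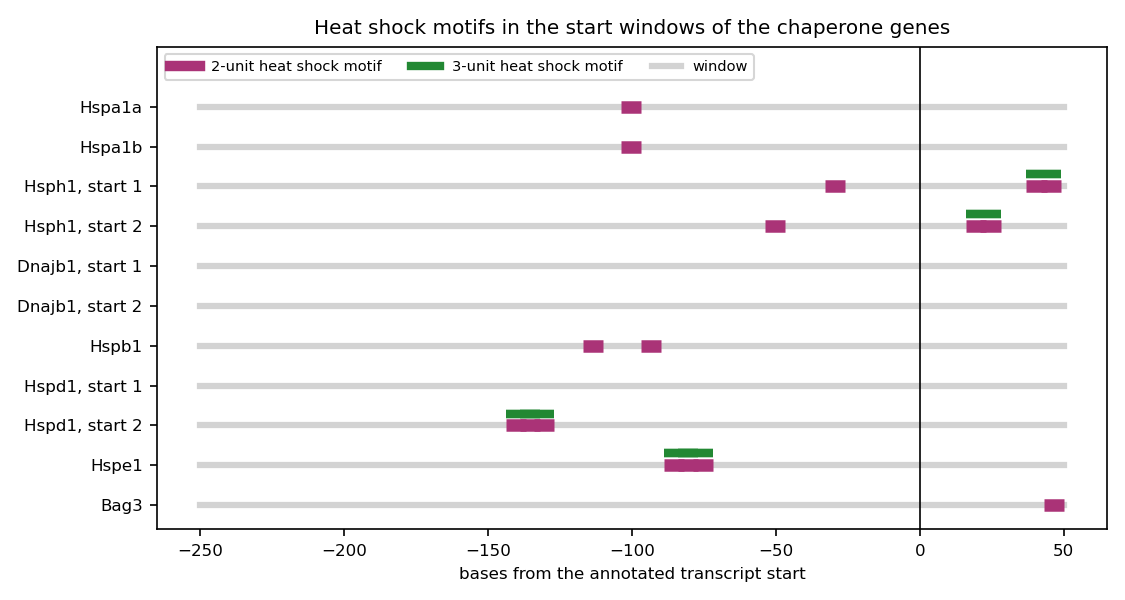
Heat shock motifs in the 300-base start windows of the 8 matched chaperone genes, by distance in bases from the annotated start (0). Purple bars are 2-unit matches and green bars 3-unit matches; Hspa1a and Hspa1b carry a match at the same place, and both Dnajb1 windows are empty.

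The near identity of Hspa1a and Hspa1b extends to their coding sequences, which are 99.58% identical (8 mismatches over 1926 aligned bases). Of the 1896 stretches of 31 bases in the Hspa1a coding sequence, 88.4% also occur in Hspa1b, so the division of reads between these genes is uncertain and their sum is given beside them. Hspa8 shares 87.5% of its 31-base stretches with Gm26825, a noncoding gene that reached at most 59 counts in a library, and Hspb1 shares 61.5% with Gm9817, which reached at most 15 counts. Hsp90aa1 shares 0.138% with Hsp90ab1, and Hsph1, Dnajb1, Hspd1, Hspe1 and Bag3 share none with another gene among the 70010 transcripts whose sequence could be compared.

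Levels are compared between genes in TPM, which corrects counts for transcript length and scales each library to the same total, on transcripts of full coding length. The constitutive HSP70 gene Hspa8 was highest, at 860 to 1009 TPM over the 6 libraries. Hspe1, the HSP10 gene, followed at 274 to 336 TPM, the inducible HSP90 gene Hsp90aa1 at 204 to 256 TPM and the HSP60 gene Hspd1 at 115 to 148 TPM. Hspb1 stood at 57.3 to 71.3 TPM. Hsph1 (22.3 to 30.4 TPM), Dnajb1 (19.9 to 29.2 TPM) and Hspa1b (15.9 to 21.3 TPM) came next, and their ranges overlapped from neighbour to neighbour. Bag3 stood at 6.16 to 8.04 TPM and Hspa1a at 3.83 to 5.03 TPM. Annotated transcripts below full length weigh heavily on some gene totals. They supplied up to 40.7% of the TPM of Hsp90aa1 but at most 4.74% of its counts. Summed over all transcripts, Hsp90aa1 (337 to 390 TPM) therefore ranks above Hspe1. For Hsph1 they supplied up to 37.0% of TPM on at most 9.83% of counts. Not all of these Hsph1 transcripts are short. Those of 2445 and 2454 bases held 1.21% and 6.88% of its counts in the library labelled sarcoma vehicle.

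**Figure D2:**
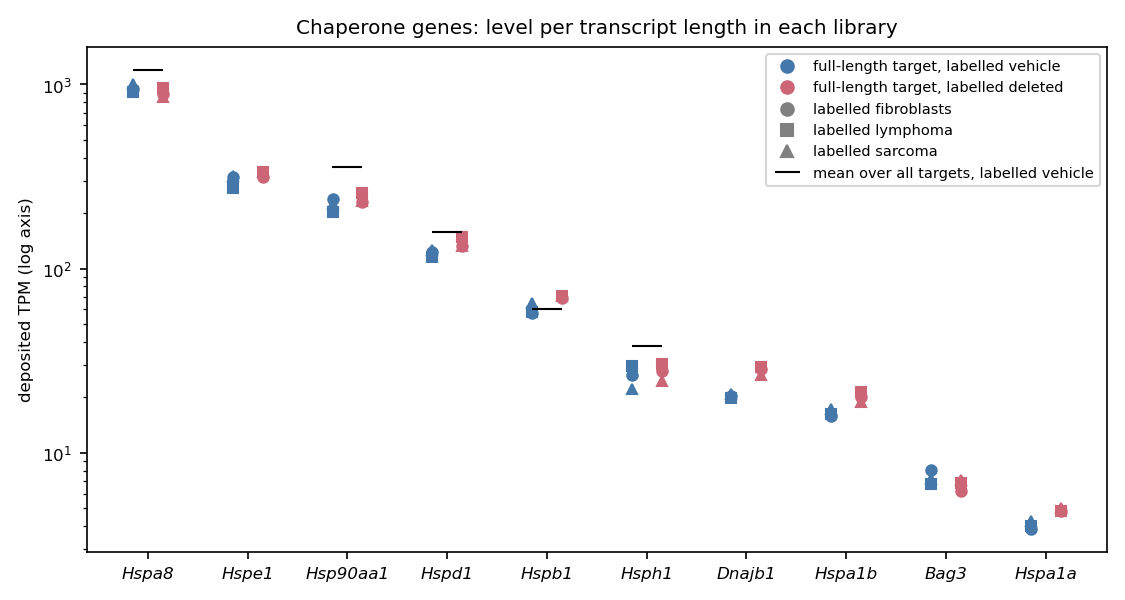
Deposited TPM (log axis) of each chaperone gene on its full-length transcript in the 6 libraries, blue for labelled vehicle and red for labelled deleted, with marker shape for the labelled cell type; black dashes give the mean over all transcripts in libraries labelled vehicle. Levels run from Hspa8 at 860 to 1009 TPM down to Hspa1a at 3.83 to 5.03 TPM.

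Over the 3 labelled pairs, the members that rose with the label deleted were Dnajb1, Hspa1b, Hspa1a, Hspb1 and Hspd1, by 1.10 to 1.35-fold in mean CPM. With edgeR's quasi-likelihood test over all genes (labelled cell type as block, adjusted p under 0.05), 5 of 10 members were called higher, while 25.0% of all genes tested were. None was called lower (0 of 10 with edgeR, DESeq2 and limma, and 2 of 10, Hspa8 and Bag3, at an unadjusted p under 0.05), against 24.6% of all genes. The median log2 fold change was 0.12 over the members and 0.02 over all genes tested. Hspa1a and Hspa1b are not separate evidence here, since they share most of their 31-base stretches. Only the Dnajb1 call held under every alternative run, and without the pair labelled fibroblasts 2 members, Dnajb1 and Hspa1b, were called higher and Hspa8 was called lower.

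Dnajb1 encodes the main cytosolic J-domain partner of inducible HSP70 (ENSMUSG00000005483.10, chromosome 8, 83608193 to 83612653). It had 40.1, 40.0 and 41.6 CPM in the libraries labelled fibroblasts, lymphoma and sarcoma vehicle, and at 57.5, 53.4 and 53.5 CPM in the matching libraries labelled deleted. The vehicle values are close to each other and all deleted values lie above them. Mean CPM was 40.5 ± 0.891 (SD, n = 3) with the label vehicle and 54.8 ± 2.36 (SD, n = 3) with the label deleted, and the shared log2 fold change was 0.43 ± 0.05 (SE, edgeR adjusted p = 1.44e-05). Under the alternatives it ranged from 0.37 to 0.47, with the largest adjusted p, 0.0311, from limma on TPM.

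Hspa1a and Hspa1b, neighbouring genes on chromosome 17 (34969190 to 34972156 and 34956436 to 34959238), encode the stress-inducible HSP70. Their summed level was 80.5, 84.1 and 89.0 CPM in the libraries labelled fibroblasts, lymphoma and sarcoma vehicle and 104, 98.3 and 99.5 CPM in those labelled deleted. The arms did not overlap, although the library labelled sarcoma vehicle stood nearest to the deleted ones. The sum rose by 0.25 ± 0.05 on the log2 scale (SE, 3 pairs, edgeR adjusted p = 0.000985), and 0.17 ± 0.05 (adjusted p = 0.00698) without the pair labelled fibroblasts. With limma on log2(TPM + 1) it was 0.27 ± 0.08 and did not pass (adjusted p = 0.0936).

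Taken separately, Hspa1b had 64.9, 67.5 and 71.5 CPM in the libraries labelled vehicle, in the same order of cell types, and at 84.0, 80.2 and 78.6 CPM in those labelled deleted (0.25 ± 0.05, edgeR adjusted p = 0.00121). Hspa1a stood at 15.6, 16.6 and 17.5 CPM against 20.0, 18.1 and 20.9 CPM (0.25 ± 0.07, edgeR adjusted p = 0.00807). Neither gene's arms overlapped. The Hspa1a call was lost with DESeq2 (adjusted p = 0.0980), without the pair labelled fibroblasts (0.0808) and with limma on log2(TPM + 1) (0.103), and the Hspa1b call with limma on log2(TPM + 1) (0.104).

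Hspb1 encodes the small heat shock protein HSP25, called HSP27 in human cells (chromosome 5, 135887919 to 135889563). Its values were 61.3, 63.3 and 70.6 CPM in the libraries labelled fibroblasts, lymphoma and sarcoma vehicle and 76.0, 70.0 and 77.9 CPM in those labelled deleted. Each deleted library was above its own vehicle, but the arms overlapped, because the library labelled sarcoma vehicle was slightly above that labelled lymphoma deleted. The shared log2 fold change was 0.20 ± 0.05 (SE, edgeR adjusted p = 0.00388), and 0.12 ± 0.05 without the pair labelled fibroblasts (adjusted p = 0.0611). With limma on log2(TPM + 1) it did not pass (0.22, adjusted p = 0.124).

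The mitochondrial chaperonin genes differed in their calls. Hspd1, the HSP60 gene (chromosome 1, 55077835 to 55088243), had 465, 448 and 482 CPM in the libraries labelled vehicle and 509.8, 516 and 512 CPM in those labelled deleted, in the order fibroblasts, lymphoma, sarcoma. These arms did not overlap, and the log2 fold change was 0.14 ± 0.04 (SE, edgeR adjusted p = 0.0184). The call was lost without the pair labelled fibroblasts (adjusted p = 0.0692), without that labelled lymphoma (0.199) without the filter on low counts (0.0604) and with limma on log2(TPM + 1) (0.322). Hspe1, the HSP10 gene that starts on the opposite strand beside it (55088132 to 55091307), stood at 105, 94.9 and 108 CPM against 109, 106 and 115 CPM. Here the arms overlapped, and the value of 0.10 ± 0.04 did not pass (edgeR adjusted p = 0.0728), though it did with protein-coding genes alone (adjusted p = 0.0216). A difference between the Hspd1 and Hspe1 fold changes was not tested.

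The most abundant member did not pass in either direction. Hspa8, the constitutive HSP70 that also strips clathrin from vesicles (chromosome 9, 40800984 to 40810087), had 4003, 3960 and 4354 CPM in the libraries labelled fibroblasts, lymphoma and sarcoma vehicle and at 3847, 3777 and 3752 CPM in those labelled deleted. In CPM, every deleted value was below every vehicle value, and the widest gap was in the pair labelled sarcoma. The log2 fold change was -0.11 ± 0.05 (SE, edgeR adjusted p = 0.0678). It was called lower without the filter on low counts (-0.14, adjusted p = 0.00670), with protein-coding genes alone (-0.10, 0.0279) and without the pair labelled fibroblasts (-0.16, 0.0145). Without the pair labelled sarcoma it shrank to -0.064 (adjusted p = 0.196), and without that labelled lymphoma it was -0.14 (0.173). With limma on log2(TPM + 1) it was -0.11 and did not pass (adjusted p = 0.425). In full-length TPM the arms overlapped, since the library labelled lymphoma deleted stood above its vehicle, at 962 against 915 TPM. The pairs labelled fibroblasts and sarcoma went lower on that scale too. In CPM the same full-length transcript was lower in the library labelled lymphoma deleted than in its vehicle, at 3647 against 3813.

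Bag3, a nucleotide exchange factor that links HSP70 and small heat shock proteins to autophagy (chromosome 7, 128523616 to 128546981), had 29.2, 25.0 and 26.3 CPM in the libraries labelled vehicle and 22.8, 23.0 and 26.2 CPM in those labelled deleted. The arms overlapped, with the libraries labelled sarcoma almost equal. Its value of -0.16 ± 0.07 did not pass (SE, edgeR adjusted p = 0.0729). Without the pair labelled sarcoma it was -0.24 and was called lower (adjusted p = 0.0207), as it was without the filter on low counts (-0.19, adjusted p = 0.0137). Without the pair labelled fibroblasts it shrank to -0.084 (adjusted p = 0.371).

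Hsp90aa1, the inducible cytosolic HSP90 (chromosome 12, 110690605 to 110702728), had 1163, 1022 and 1128 CPM in the libraries labelled fibroblasts, lymphoma and sarcoma vehicle and 1163, 1155 and 1180 CPM in those labelled deleted. The libraries labelled fibroblasts were almost equal. The log2 fold change was 0.08 ± 0.05 (SE, edgeR adjusted p = 0.185), and it passed with protein-coding genes alone (0.10, adjusted p = 0.0457). Without the pair labelled lymphoma it was 0.033 (adjusted p = 0.750). Hsph1, the HSP110 nucleotide exchange factor of HSP70 (chromosome 5, 149614287 to 149636376), had 159, 183 and 139 CPM against 168, 168 and 152 CPM. Its highest and its lowest value both came from libraries labelled vehicle, and its value was 0.03 ± 0.05 (edgeR adjusted p = 0.704). With limma on log2(TPM + 1) its sign turned (-0.23, adjusted p = 0.157).

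**Figure D3:**
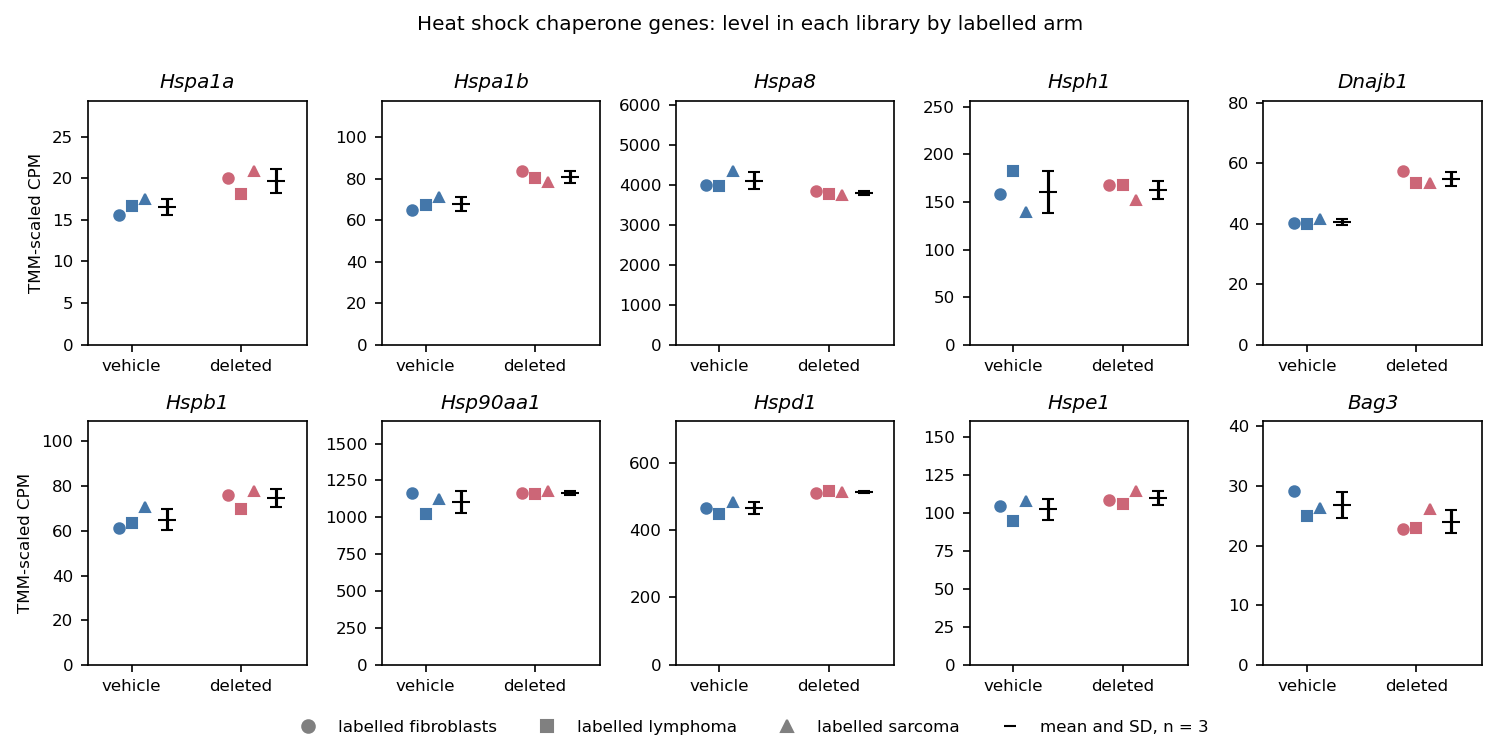
TMM-scaled CPM of the 10 chaperone genes in each library, by labelled arm; marker shape gives the labelled cell type and the bars the mean and SD over 3 libraries. Relative to its level, Dnajb1 shows the widest separation (40.0 to 41.6 against 53.4 to 57.5 CPM). Hspa8 is the only gene whose deleted values all lie below the vehicle values.

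In CPM, all deleted values lay above all vehicle values for 4 members (Dnajb1, Hspa1a, Hspa1b and Hspd1) and below them for 1 (Hspa8). The same orders held for 27.7% and 27.8% of all genes tested. Within pairs, which have no replicate and carry no test, 0 of 10 members differed at least 1.5-fold. Among all genes of at least 5 CPM, 6.02%, 6.04% and 6.55% were that much higher and 3.60%, 3.85% and 4.38% that much lower in the pairs labelled fibroblasts, lymphoma and sarcoma. The Dnajb1 ratio was 1.44 in the pair labelled fibroblasts (95% Clopper-Pearson interval from the counts 1.33 to 1.55), 1.34 in that labelled lymphoma (1.24 to 1.45) and 1.29 in that labelled sarcoma (1.20 to 1.38). The summed Hspa1a and Hspa1b ratio was 1.29 (1.22 to 1.36), 1.17 (1.11 to 1.24) and 1.12 (1.06 to 1.18) in the same order.

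For other members the pairs differed as well. Bag3 had a ratio of 0.783 (0.706 to 0.867) in the pair labelled fibroblasts, 0.919 (0.825 to 1.02) in that labelled lymphoma and 0.995 (0.903 to 1.10) in that labelled sarcoma. Hspa8 had ratios of 0.961 (0.953 to 0.969), 0.954 (0.946 to 0.962) and 0.862 (0.855 to 0.868). Hsp90aa1 had ratios of 1.00 (0.985 to 1.02), 1.13 (1.11 to 1.15) and 1.05 (1.03 to 1.06). The interval lay above 1 for 6, 6 and 8 members in the pairs labelled fibroblasts, lymphoma and sarcoma, against 30.5%, 31.1% and 32.9% of all genes, and below 1 for 2, 2 and 1, against 31.4%, 29.8% and 35.2%. These intervals cover counting error alone and narrow as counts rise, so that Hspa8 lies below 1 even at a ratio of 0.961. The shares among members and among all genes therefore also depend on how many counts each gene has. The labelled exposure of 6 h is set by cell type, so time and cell type cannot be told apart.

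**Figure D4:**
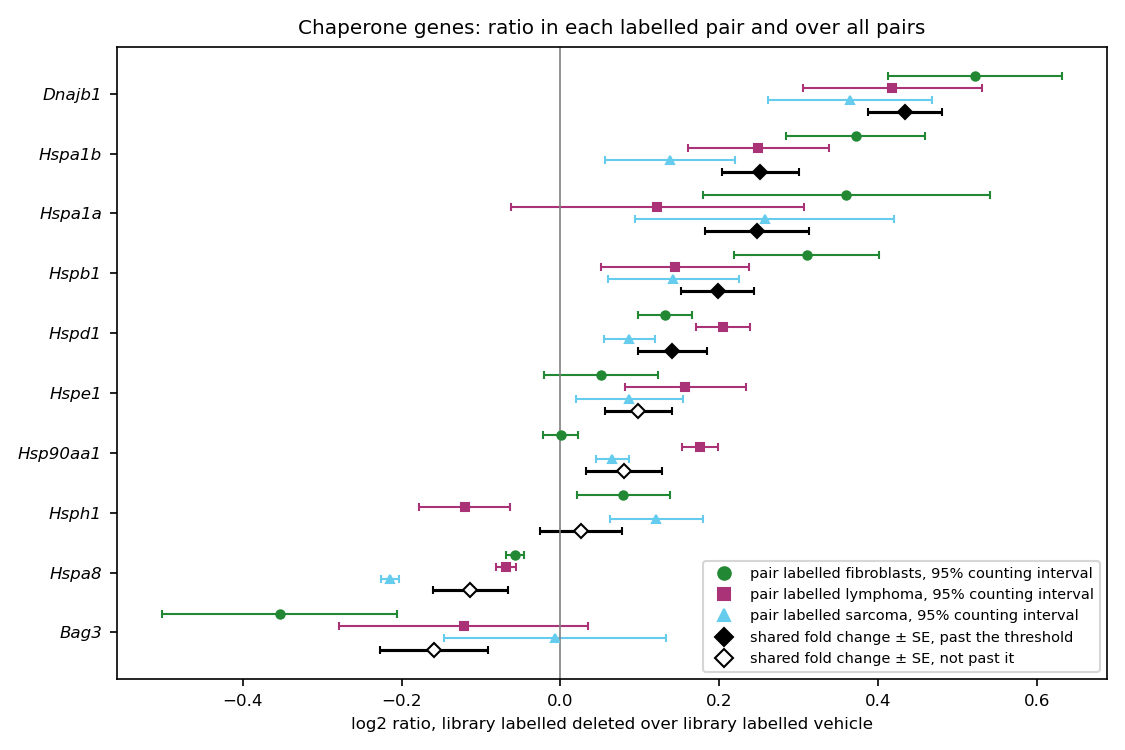
Log2 ratio of each chaperone gene in the 3 labelled pairs, with 95% counting intervals, and the shared log2 fold change with its SE (diamonds, filled where the edgeR adjusted p is under 0.05). Dnajb1 lies to the right of 0 in every pair, Hspa8 to the left, and Hsph1 on both sides.

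Of the wider chaperone network, 98 genes in 9 lists were tested, of which 32 were called higher and 25 lower by edgeR, with a median log2 fold change of 0.04. These are 32.7% and 25.5% of the genes tested in the lists, near the 25.0% higher and 24.6% lower among all genes tested, against which each list below is to be read. Regulators of HSF activity gave 0 of 4 higher (1, Hsf1, at an unadjusted p under 0.05, and 0 with DESeq2 or limma) and 1 lower, with a list median of -0.08. Hsf1 itself had a log2 fold change of 0.12 ± 0.05 (SE, edgeR adjusted p = 0.0571) and was called higher with protein-coding genes alone (0.13, adjusted p = 0.0200) and without the pair labelled sarcoma (0.17, 0.0179), but not without that labelled lymphoma (0.072, 0.374). The lower call was Hsf4, a factor best known from the eye lens, on 3.42 to 4.99 CPM (-0.29, adjusted p = 0.0487), lost with DESeq2 and without the pair labelled lymphoma or sarcoma, and opposite in sign on TPM (0.47).

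HSP90 and its cofactors had 5 of 17 genes higher and 5 lower, 29.4% each way, near the 25.0% and 24.6% of all genes, and a median of 0.01. Fkbp5, a glucocorticoid-induced immunophilin, fell from 84.4 ± 3.28 to 60.0 ± 4.85 CPM (SD, n = 3; log2 fold change -0.49, edgeR adjusted p = 3.53e-06). Stub1, which encodes the ubiquitin ligase CHIP, fell by 0.30, and Ahsa2, a paralogue of an HSP90 ATPase activator, by 0.27. Cdc37l1, a paralogue of the kinase cochaperone Cdc37, rose by 0.31. Of the further HSP70 and HSP110 genes, 3 of 8 rose and 4 fell (median -0.04). The HSP110 genes Hspa4l and Hspa4 rose from 126 ± 2.71 to 209 ± 3.46 CPM (0.72, edgeR adjusted p = 8.35e-08) and from 239 ± 8.78 to 334 ± 4.61 CPM (0.48, adjusted p = 4.09e-06), whereas the third HSP110 gene, Hsph1, did not pass. Hspa2, best known from the testis, fell by 0.34, and Hspa1l, next to Hspa1a, fell by 0.75 on 0.373 to 1.06 CPM, a call lost with DESeq2 and without the pair labelled lymphoma or sarcoma.

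BAG proteins and HSP70 exchange factors gave 2 of 6 higher and 2 lower (median 0.06). Bag1 rose by 0.23, Hspbp1 by 0.17, and Bag6 and Bag4 had values of -0.21 and -0.17; the Hspbp1 and Bag4 calls were lost with DESeq2. Among J-domain genes, 6 of 19 tested rose (31.6%) and 4 fell (21.1%), near the 25.0% and 24.6% of all genes (median 0.02). Dnajc13, which acts on endosomes, rose from 221 ± 12.1 to 310.5 ± 12.5 CPM (0.49, edgeR adjusted p = 1.95e-06), Dnaja1 by 0.37 and the ribosome-bound Dnajc2 by 0.35, while Dnajb4, a paralogue of Dnajb1, fell by 0.34. Small heat shock proteins gave 0 of 3 tested higher (0 at an unadjusted p under 0.05, 0 with DESeq2 or limma) and 1 lower (median -0.08): Hspb8, the partner of Bag3, at -0.19, lost with DESeq2.

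The cytosolic chaperonin TRiC, which folds actin and tubulin, and its helper prefoldin had 4 of 14 genes higher and 1 lower (median 0.02). The TRiC subunit gene Cct3 rose from 516 ± 15.1 to 765 ± 10.4 CPM (0.57, edgeR adjusted p = 9.17e-07). Among the other 7 TRiC genes, Cct6a rose (0.11, adjusted p = 0.0427) and the rest did not pass. The Cct6a call was lost with DESeq2 (adjusted p = 0.0628), DESeq2 size factors (0.0502), limma on TPM (0.211), no filter on low counts (0.187) and without the pair labelled fibroblasts (0.232) or lymphoma (0.238). Cct6a was chosen after its values were seen. Prefoldin genes Pfdn4 and Pfdn6 rose by 0.24 and 0.16, the latter lost with DESeq2, and Pfdn5 fell by 0.25.

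Mitochondrial chaperones and proteases had 8 of 17 tested genes higher (47.1%) and 3 lower (17.6%), against 25.0% and 24.6% of all genes, with a median of 0.10. Hspa9, the mitochondrial HSP70, rose from 761 ± 31.1 to 1087 ± 13.4 CPM (0.51, edgeR adjusted p = 2.23e-06), and its exchange factor gene Grpel2 from 14.5 ± 0.735 to 20.3 ± 0.135 CPM (0.49). Htra2, a protease of the intermembrane space, rose by 0.43. Hscb, the J-domain cochaperone for iron-sulfur clusters, fell by 0.56. Beside these, the HSP60 gene Hspd1 rose by 0.14.

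In a last list of 14 further genes taken to respond to HSF1, 3 of which also stand in the lists above, 7 of 13 tested rose and 4 fell (median 0.19). Zfand2a, which encodes a proteasome-associated zinc finger protein known for its induction by arsenite and heat, went from 5.51, 4.59 and 4.33 CPM in the libraries labelled fibroblasts, lymphoma and sarcoma vehicle to 12.7, 12.8 and 13.8 CPM in those labelled deleted. Its log2 fold change of 1.45 ± 0.10 (SE, edgeR adjusted p = 2.99e-07) was the largest in the 9 lists. Ier5l fell by 0.64 and Hspb11, which despite its symbol encodes a protein of intraflagellar transport, by 0.60. Of the 29 genes named from these lists, 11 kept their call under every alternative run: Cct3, Dnajc13, Fkbp5, Grpel2, Hspa4, Hspa4l, Hspa9, Hspb11, Htra2, Ier5l and Zfand2a.

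**Figure D5:**
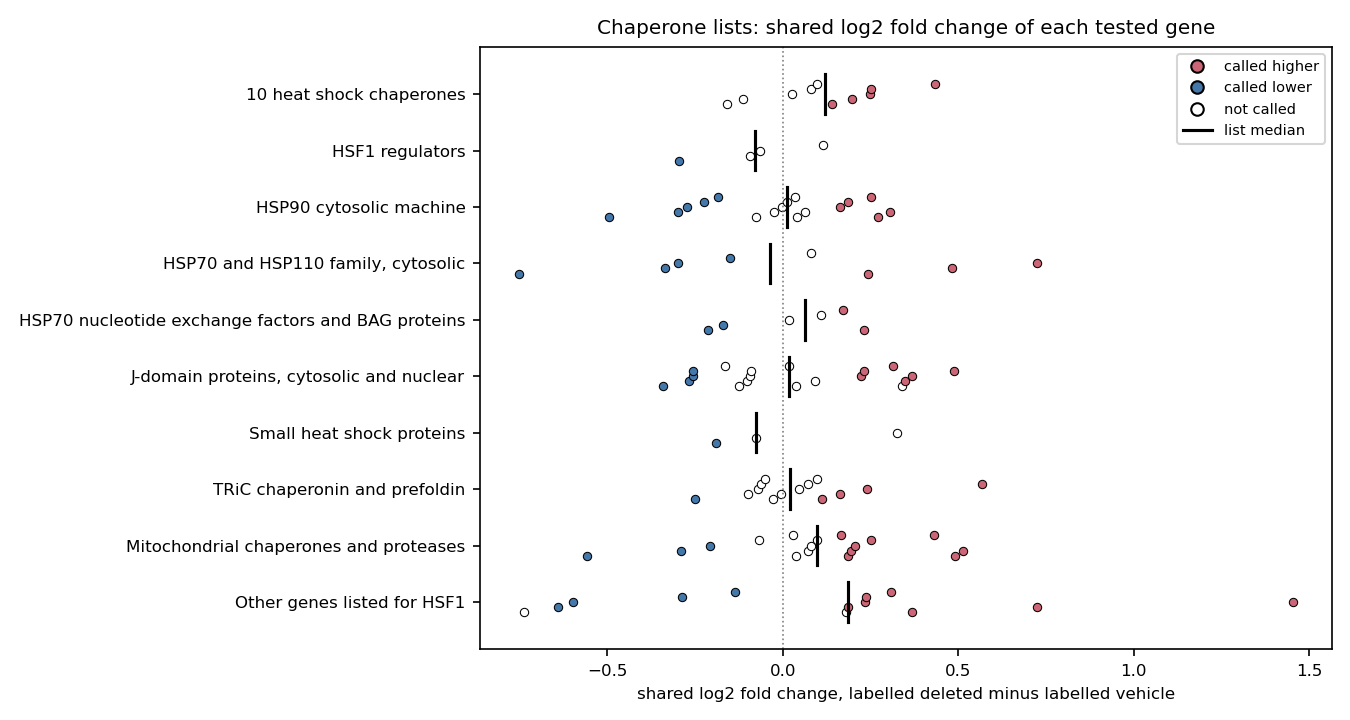
Shared log2 fold change (x axis, labelled deleted minus labelled vehicle) of each tested gene in the 10 chaperone genes and 9 wider lists, red where called higher, blue where called lower and white where not called, with the list median as a black line. The list medians run from -0.08 to 0.19, and the point at 1.45 is Zfand2a.

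The genes whose profile over the 6 libraries was most like that of the summed Hspa1a and Hspa1b were Med7, Rps19bp1 and Kctd20, at Pearson r of 0.999, 0.998 and 0.998 of log2(CPM + 0.5). For Hspa8 they were Stard10, Clasrp and Rps3, at 0.995, 0.993 and 0.993. The 6 points share arm, depth and library composition, and 1699 and 594 of 10847 genes had r above 0.9 with these profiles, so the ranking is a description only.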

How the data were processed

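For each library the authors deposited estimated counts and TPM per transcript. The submitters' processing notes name kallisto 0.43.0 and the build GRCm38, and the labels a stranded kit; the transcript set and strand setting are not given in the sources used here. Of 76055 transcripts, 75049 were joined by identifier to GENCODE M21 genes, and the other 1006 (0.393% to 0.410% of counts) were left out. Estimated counts were summed per gene and rounded; deposited TPM was added up by gene or read on full-length transcripts, whose listed lengths equal the members' coding lengths. Reads of near-identical genes are divided by likelihood.

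All 6 libraries were fitted with edgeR 4.0.16 (quasi-likelihood, TMM, filterByExpr by arm, Benjamini-Hochberg over all genes, two-sided) with labelled cell type as block, since the labels pair libraries by cell type; deviations from arm means correlated at 0.0324, 0.139 and 0.141 within pairs. The fit had 2 residual and 9.23 prior degrees of freedom, and an SE is the absolute log2 fold change over the square root of F. Nothing states separate cultures beyond cell type, and p-values therefore cover only library-to-library spread, which may be technical. Pair ratios use TMM-scaled CPM, pseudocount 0.5 for log2 ratios and folds, a mean of at least 5 CPM, and 95% Clopper-Pearson intervals. Alternatives used DESeq2 1.42.0 and limma 3.58.1 on log2(TPM + 1) of genes with a mean TPM of at least 1. R 4.3.3 and Python 3.11.15 were used. The fit was tested on simulated counts with the same dispersion (spread beyond counting error) for all genes and no cell type effect. Far fewer genes were changed there than were called here, so that test does not show how often these calls are false. Members and lists were chosen with earlier results of these data known. Named genes were all members and, per list, up to 4 called genes with the largest absolute fold change; 1 listed symbol, Dnajc20, an older name of Hscb, was not matched.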

Additional observations from a re-analysis of the deposited data

Results flagged for a closer look

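Hsph1, the HSP110 gene, moved in opposite directions in the labelled pairs, with counting intervals on opposite sides of 1. Its ratio of CPM, labelled deleted over labelled vehicle, was 1.06 (95% counting interval 1.01 to 1.10) in the pair labelled fibroblasts and 1.09 (1.04 to 1.13) in that labelled sarcoma, but 0.920 (0.884 to 0.957) in that labelled lymphoma. The split between pairs depends on the scale. In full-length TPM the deleted library was higher in every pair (27.8 against 26.5 for fibroblasts, 30.4 against 29.5 for lymphoma, 24.5 against 22.3 for sarcoma). In TPM summed over all transcripts it was lower in every pair (32.5 against 34.7, 35.4 against 46.8, 27.7 against 31.9). In CPM the split remained on full-length transcripts. Each of the 2 had 79.1 against 73.9 CPM for fibroblasts and 69.8 against 62.9 for sarcoma, but 78.3 against 83.5 for lymphoma. Bag3, which has 1 transcript, was also lower in CPM in the pair labelled lymphoma (23.0 against 25.0) but not in TPM (6.86 against 6.79). With 1 library per group the difference between pairs was not tested.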

How the results depend on the processing

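Members called higher and lower, 5 and 0 in the main analysis, were 4 and 0 with DESeq2, 4 and 2 without the filter on low counts, 7 and 1 with protein-coding genes alone, and 1 and 0 with limma on log2(TPM + 1). Leaving out 1 labelled pair gave 2 to 5 higher and 0 to 1 lower, the fewest without the pair labelled fibroblasts. Counts on full-length transcripts only, chosen after seeing the data, gave 5 and 0, as did DESeq2 size factors. Without the replicate block they were 5 and 0, with 3742 genes higher and 3772 lower in all. Among the genes named from the lists, the Hsf4, Hspa1l and Pfdn6 calls were lost. The last list, of genes taken to respond to HSF1, had 6 higher calls there against 7 in the main analysis. Over all genes, 3981 rose and 3920 fell, against 2541 and 2488 with DESeq2 and 1430 and 872 with limma on TPM, so that higher calls made up 62.1% with limma and 50.4% in the main analysis. The summed Hspa1a and Hspa1b value was 0.27 and did not pass with limma on TPM. Hsph1 reversed to -0.23 with limma on TPM, to -0.023 without the pair labelled fibroblasts and to -0.022 without that labelled sarcoma (range on leaving out a pair -0.023 to 0.10), and Hsf4 to 0.47 with limma on TPM. The limma fit used TPM summed over all transcripts. An Hsph1 transcript of 301 bases, on at most 132 counts, had 6.52, 13.6 and 7.48 TPM in the libraries labelled fibroblasts, lymphoma and sarcoma vehicle. It had 3.16, 2.76 and 1.01 TPM in those labelled deleted, while mean full-length Hsph1 TPM went from 26.1 to 27.5. The cause of these reversals was not tested. With a minimum of 1 CPM, which admits more genes, 625, 653 and 727 genes were at least 1.5-fold lower in the pairs labelled fibroblasts, lymphoma and sarcoma, and 1092 higher in that labelled sarcoma. At 445 to 659 counts per library, Hspa1a is the least precisely counted member.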

Other observations

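Within Hspa8, 1 of 4 annotated transcripts, a short one of 349 bases, had 42.8, 35.5 and 52.7 CPM in the libraries labelled fibroblasts, lymphoma and sarcoma vehicle and 29.4, 18.3 and 33.5 CPM in those labelled deleted. It held 0.484% to 1.21% of the gene's counts, and the full-length transcript held 96.1% to 96.6%. The small nucleolar RNA genes Snord14c, Snord14d and Snord14e, which lie in introns of Hspa8, stood at 1.43 to 2.48 CPM in all libraries.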
